A study of Drosophila melanogaster with 10 samples.

Results

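The sex difference of larval brains was described in 12xWT, a Drosophila melanogaster genotype with 12 repeats of the histone gene cluster by its label. The members are the 6 libraries labelled 12xWT, 3 of males and 3 of females, of 10 libraries in the series. They were chosen by the genotype and the sex in their labels, not by a measured value. The other 4 libraries, 2 of males and 2 of females, are of yw, with 200 repeats by its label, and served to set the same sex difference beside it. Every library was polyA-selected RNA from 25 brains of wandering third-instar larvae, so each value is a mean over a pool. The labels give no further allele, transgene insertion or exact age, and they do not say whether pools of a group came from separate cultures, so p-values measure the spread between these pools, which may be technical.

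Male flies have a single X chromosome and a Y, and females have a pair of X chromosomes. In females the RNA-binding protein Sex-lethal directs the splicing of transformer and blocks the protein Msl2. In males Msl2 is made and assembles, with Msl1, Msl3, Mof, Mle and the noncoding RNAs roX1 and roX2, into a complex that binds the male X and raises its transcription. This dosage compensation brings most X-linked genes to a similar level in both sexes. The Y chromosome of flies carries few genes, most of them used in the testis.

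The 12xWT libraries held between 52.52 and 79.92 M counts assigned to genes. The unit of level is CPM, counts per 1 M counts of a library. A gene without counts can have had 3 counts at most, which is 0.0375 to 0.0571 CPM in these libraries and covers counting error only. The deepest library was male replicate 1. Of 16727 genes in the count table, 11146 were tested. In a principal component analysis of the 6 libraries the first component, with 31.8% of the variance, held males at -7.13, -11.9 and 26.6 and females at 15.7, -11.9 and -11.3, so the sexes were not apart on it. Differences are males minus females on a log2 scale, CPM values are not corrected for gene length, and coordinates are on dm6. The reads were counted without strand, so values of a gene that overlaps another are uncertain, and such overlaps are named.

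The 12xWT female libraries carried Y-linked RNA. Summed over the 8 Y-linked genes that passed the filter, the level was 19.8, 22.8 and 21.9 CPM in the males and 4.77, 17.9 and 4.39 CPM in the females, replicates 1 to 3. Female replicate 2 thus stood at 83.4% of the male mean, and replicates 1 and 3 at 22.2% and 20.4%. The yw libraries had little of this RNA in either sex, with 0.105 and 0.260 CPM in males and 0 and 0.0356 CPM in females. The RNAs roX1 and roX2 of the male complex placed replicate 2 further below the males than the Y-linked RNA did. Female replicate 2 had 43.6% of the male mean of roX1, replicates 1 and 3 had 26.7% and 30.9%, and for roX2 the shares were 36.0%, 17.4% and 22.1%. The yw females held roX1 too, at 308.1 and 446.0 CPM, against 3139 and 2953 CPM in yw males. For roX2 they had 0.0769 and 2.88 CPM, against 65.35 and 67.75 CPM in yw males. Whether pools held brains of both sexes, or whether 12xWT females carry Y-linked sequence, was not tested. Values without female replicate 2 are given where it changed a call or moved a large difference.

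**Figure D1:**
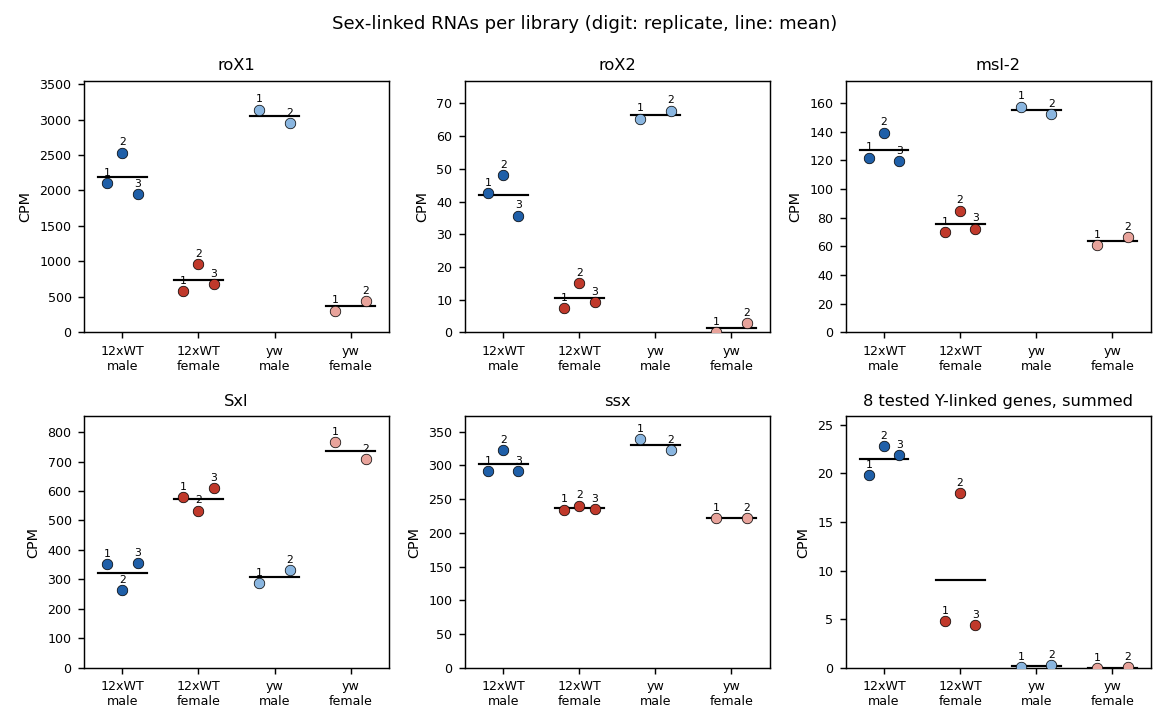
Level of roX1, roX2, msl-2, Sxl, ssx and the summed 8 tested Y-linked genes in each library (y axes, CPM, each starting at 0), by genotype and sex (x axes). Points are libraries with their replicate number and lines are group means. The 12xWT females sit nearer to the 12xWT males than yw females to yw males in roX1 and roX2, and female replicate 2 stands at 17.9 CPM of Y-linked RNA against 19.8 to 22.8 CPM in the males.

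Few genes passed the test between the sexes in 12xWT, and 5 of the 6 that did were X-linked, against 1886 of the 11146 genes tested. The genes msl-2 and ssx were higher in males, and the X-linked genes CG43921, Sik2, baz and Syx4 were lower. With edgeR's quasi-likelihood test and Benjamini-Hochberg adjustment at 0.05, these 6 genes were all that was called, 0.0538% of the genes tested. The 2 higher genes were 0.0179% and the 4 lower genes 0.0359%. Without adjustment 692 genes (6.21%) had a p under 0.05, 243 (2.18%) higher and 449 (4.03%) lower in males. That count was 1162 without 12xWT male replicate 1, and between 528 and 904 without each of the other libraries. In 529 genes (4.75%) all 3 males lay above all 3 females, and in 585 (5.25%) all 3 lay below. DESeq2's Wald test called 55 genes, 18 higher and 37 lower, 0.493% of those tested, with the 6 genes among them. Leaving out 12xWT female replicate 1 or 3, or yw female replicate 1 or 2, left 3 calls by edgeR, and leaving out 12xWT male replicate 1 gave 9.

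The gene msl-2 encodes the male-limited subunit that sets off assembly of the dosage compensation complex (FBgn0005616, chromosome 2L, 3462218 to 3466112, minus strand, overlapping mir-4971). Its level was 121.9, 139.3 and 119.5 CPM in the males and 69.9, 84.9 and 72.3 CPM in the females. All males lay above all females. The log2 difference was 0.75 (SE 0.085, edgeR, Benjamini-Hochberg adjusted p = 0.0314). Of 10 fits that left out a library, 2 kept the call, with edgeR adjusted p-values over the 10 from 0.00366 to 0.243, and the lowest was without female replicate 2, where the log2 difference was 0.83. In yw the values were 157.4 and 152.0 CPM in males and 60.8 and 66.6 CPM in females, a log2 difference of 1.28.

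The noncoding RNA roX1 (chromosome X, 3857230 to 3862697, minus strand, overlapping ec) was the most abundant of the RNAs of the complex. It stood at 2099, 2535 and 1949 CPM in the males and at 584.9, 957.7 and 678.5 CPM in the females, again with no overlap. The log2 difference of 1.57 (SE 0.22) missed the threshold by edgeR (Benjamini-Hochberg adjusted p = 0.126) and passed it by DESeq2's Wald test (adjusted p = 6.04e-08). Without female replicate 2 it was 1.79 by edgeR, with an adjusted p of 0.0662. Its partner roX2 (chromosome X, 11579065 to 11580432, plus strand) had 42.5, 48.0 and 35.7 CPM in the males and 7.34, 15.1 and 9.29 CPM in the females. Its log2 difference of 1.99 (SE 0.53) was called neither by edgeR (adjusted p = 0.433) nor by DESeq2 (adjusted p = 0.764). Without female replicate 2 it was 2.34, again not called by edgeR (adjusted p = 0.573). In both RNAs female replicate 2 was the highest female. In yw the log2 differences were 3.01 for roX1 and 5.45 for roX2.

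Of the other proteins of the complex, mof, the X-linked gene of its histone acetyltransferase, had 45.8, 49.8 and 44.4 CPM in males and 36.6, 43.1 and 37.9 CPM in females. The groups did not overlap, and the log2 difference was 0.25 (SE 0.067, edgeR, Benjamini-Hochberg adjusted p = 0.295). Likewise, the chromodomain subunit gene msl-3 and the RNA helicase gene mle had every male above every female, with log2 differences of 0.12 and 0.06, neither called. The scaffold gene msl-1, at 0.08, overlapped between the sexes through female replicate 2. The zinc finger gene Clamp, whose protein helps bring the complex to the X, the kinase gene JIL-1 and Unr, a partner of Sex-lethal, stood at 0.02, -0.01 and 0.00. Of the 10 dosage compensation genes edgeR called 1, higher in males, against 0.0538% of all genes tested in either direction. In 6 every male lay above every female, against 4.75% of all genes tested. Their median log2 difference was 0.098, against 0.003 over all genes tested.

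Sex-lethal (Sxl, FBgn0264270, chromosome X, 7074550 to 7098056, minus strand, overlapping mir-4956) is the switch gene of female development. Its RNA is also made in males, in a spliced form that gives no working protein, and gene counts do not tell the forms apart. The males had 350.6, 262.5 and 355.2 CPM and the females 578.1, 533.7 and 609.3 CPM. All males lay below all females. The log2 difference was -0.83 (SE 0.12), not called by edgeR (Benjamini-Hochberg adjusted p = 0.122) and called by DESeq2 (adjusted p = 6.97e-07). The gene ssx (FBgn0024987, chromosome X, 1370580 to 1375257, plus strand, overlapping mir-4961), a paralog of Sxl, went the opposite way. It had 292.0, 322.8 and 290.9 CPM in males and 234.5, 240.3 and 235.1 CPM in females. Its log2 difference was 0.35 (SE 0.044, edgeR, Benjamini-Hochberg adjusted p = 0.0189), and it was called in 5 of 10 fits that left out a library, with adjusted p-values from 0.0133 to 0.122. Without female replicate 2 the log2 difference was 0.36 and the call was lost (edgeR adjusted p = 0.0683).

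The genes downstream of Sxl differed less. The splicing factor gene transformer (tra) had 21.4, 20.5 and 22.9 CPM in males and 25.4, 23.5 and 26.0 CPM in females, a log2 difference of -0.21. The gene fruitless (fru), whose sex-specific splice forms shape male courtship circuits, had 83.3, 82.0 and 84.4 CPM in males and 93.3, 92.9 and 90.8 CPM in females, a log2 difference of -0.15. Neither passed edgeR's test, with Benjamini-Hochberg adjusted p-values of 0.282 and 0.294, although neither group overlapped the other. The gene doublesex (dsx), the transcription factor at the end of the somatic sex pathway, ranged from 11.3 to 17.4 CPM in males and from 11.3 to 13.4 CPM in females and overlapped. Its highest value was in male replicate 3, without which the log2 difference went from 0.16 to -0.05. Of 22 tested sex determination genes, edgeR called 0, with 3 at an unadjusted p under 0.05, against 6.21% of all genes. In 6 the sexes had no overlap, against 9.99% of all genes: Sxl, tra, fru and snf, a splicing factor gene, lower, and her and hop, at 0.07 and 0.06, higher. DESeq2 called Sxl alone among them. The median of the list was 0.005, against 0.003 over all genes tested.

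The Y-linked RNA came mainly from a single gene and a repeated family. Of 56 Y-linked genes in the table, 26 had no count in any 12xWT library and 8 were tested. Genes for sperm flagellar motor proteins were among the silent ones, with kl-3 and kl-5 at 0 counts in all 6 libraries. The gene kl-2 had 0, 2 and 5 counts in males and 0, 2 and 0 counts in females. The gene fdy (chromosome Y, 3022289 to 3024026, plus strand) made up 72.7% of the summed Y-linked level in males. It had 14.0, 16.6 and 16.3 CPM in males and 3.43, 12.9 and 3.19 CPM in females. In yw males it had 0 and 0.0813 CPM. The log2 difference in 12xWT was 1.26 (SE 0.55, edgeR, Benjamini-Hochberg adjusted p = 0.808). Without female replicate 2 it was 2.24 and was called (edgeR, Benjamini-Hochberg adjusted p = 0.0141). That library stood out by its Y-linked level, to which fdy contributes, so leaving it out favours the call, which is a description only.

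The other Y-linked RNA came from the Suppressor of Stellate repeats, whose transcripts are known as the source of small RNAs that silence Stellate in the testis. The table lists 31 such copies, among which reads of near-identical sequence can be shared or lost, so single copies are uncertain. Summed, they stood at 5.98, 6.40 and 5.596 CPM in males and at 1.28, 5.34 and 1.14 CPM in females. The most abundant copy, Su(Ste):CR42407 (FBgn0259838, 892743 to 894201, minus strand), had 3.38, 3.88 and 3.36 CPM in males and 0.775, 3.09 and 0.660 CPM in females, and it too was called only in the edgeR fit that left out female replicate 2 (log2 difference 2.30, Benjamini-Hochberg adjusted p = 0.0139). The levels of fdy and of the repeats had the same order over the females. The remaining 6 tested genes were CG40551 and the copies Su(Ste):CR42406, CR42425, CR42426, CR42430 and CR42432, all under 1 CPM on average. Of the 8 tested Y-linked genes, 5 had every male above every female, and 8 of 8 once female replicate 2 was left out. Some of the Y-linked genes pass the filter only through the males, so these counts are a description. Female replicate 2 was singled out by its Y-linked level, so the call and the count without it are descriptions too.

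Summed per library, the tested Y-linked level was 21.5 ± 1.51 CPM in males and 9.03 ± 7.72 CPM in females (SD, n = 3 each). The difference of 12.5 CPM had a two-sided exact permutation p of 0.1, the smallest that 3 against 3 libraries allow. Some of these genes passed the filter only through the males, so this p is no independent support. Summed without the filter over all 56 Y-linked genes of the count table, the difference was 12.8 CPM, with the same exact permutation p of 0.1. The SD of the females came from replicate 2.

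The X chromosome as a whole was slightly lower in males. Over 1886 tested X-linked genes the median log2 difference was -0.042, with quartiles of -0.145 and 0.027. Over 9251 autosomal genes it was 0.009, with quartiles of -0.048 and 0.053. The X-linked median corresponds to a male level of 0.971 times the female level. Among X-linked genes 65.9% had a negative difference, against 44.6% of autosomal genes. All 3 males lay below all 3 females in 17.97% of X-linked and 2.66% of autosomal genes. The opposite order was found in 6.68% and 4.30%.

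The arms 2L, 2R, 3L and 3R were alike, with medians between 0.007 and 0.010. Chromosome 4, a small autosome derived from a former sex chromosome and bound by its own chromosome-wide protein, had a median of 0.021 over 96 genes. In 7 of them (7.29%) every male lay above every female, against 4.30% of autosomal and 4.75% of all genes tested. In 0 every male lay below every female, against 2.66% and 5.25%. Whether chromosome 4 differed from the other autosomes in these counts was not tested. In yw the medians were -0.054 for X, 0.004 for the autosomes and 0.063 for chromosome 4.

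The X-linked share of all X and autosomal counts was 18.57%, 18.60% and 18.64% in males and 19.02%, 18.92% and 19.10% in females. Every male library was below every female library, and female replicate 2 was the lowest of the females. The means were 18.6 ± 0.0385% and 19.0 ± 0.0945% (SD, n = 3 each), a difference of -0.410 percentage points with a two-sided exact permutation p of 0.1, the smallest possible. In yw the difference was -0.572 points. The 2 differences differed by 0.162 points, with an exact permutation p of 0.2 over the 100 ways of exchanging genotype labels within sex. Whether the X-linked share was less sexually different in 12xWT than in yw was therefore not shown by these libraries.

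**Figure D2:**
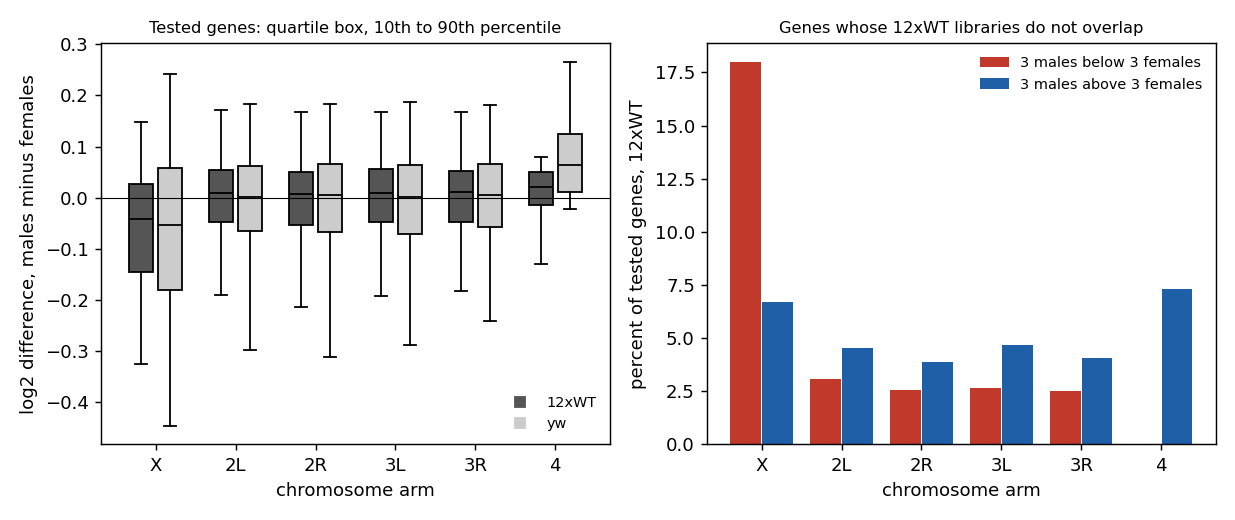
Left, log2 difference of males minus females over the tested genes of each chromosome arm in 12xWT and yw, with boxes from the lower to the upper quartile, a line at the median and whiskers at the 10th and 90th percentiles. Right, percent of tested genes of each arm in which the 3 male libraries of 12xWT lay all below or all above the 3 female libraries, with X at 17.97% below and the arms of chromosomes 2 and 3 between 2.53% and 3.09%.

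The shift of X-linked genes was present at every level of expression and along the whole chromosome. In the 418 X-linked genes at 100 CPM or more the median was -0.027, against 0.014 in autosomal genes of that level. It was -0.034 against 0.010 between 10 and 100 CPM, and -0.064 against -0.002 between 1 and 10 CPM. In 370 genes under 1 CPM it was -0.144 against -0.032. In 12 windows of 2 Mb along the X the median lay between -0.090 and -0.011, negative in each. The window with the median nearest to 0 ran from 16 to 18 Mb. Most differences were small: 53.3% of X-linked genes lay within 0.1 of 0 on the log2 scale, and 97 genes (5.14%) were lower by more than 0.5. A single run of 3 neighbouring X-linked genes lay under -0.5, CG4653, CG9672 and CG13008 (16704081 to 16714372). Each of these had under 1 CPM, overlapping sexes and an edgeR Benjamini-Hochberg adjusted p of 0.915 or above.

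Of the 6 calls in 12xWT, 4 were X-linked genes with less RNA in males. The gene bazooka (baz, FBgn0000163, chromosome X, 17160006 to 17200705, plus strand) encodes the Par-3 scaffold that marks the apical side of dividing neuroblasts and of epithelia. It had 33.6, 32.6 and 36.6 CPM in males and 49.9, 47.6 and 48.5 CPM in females. The groups were 34.3 ± 2.11 and 48.7 ± 1.19 CPM (SD, n = 3 each) and did not overlap. The log2 difference was -0.51 (SE 0.044, edgeR, Benjamini-Hochberg adjusted p = 7.35e-04). In yw the males had 78.7 and 81.4 CPM and the females 79.7 and 77.7 CPM, a log2 difference of 0.02. Both sexes of 12xWT thus lay below both sexes of yw, and the males lay lower.

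The gene CG43921 (chromosome X, 12516634 to 12568452, minus strand) had 181.1, 170.8 and 179.1 CPM in males and 271.9, 257.6 and 278.3 CPM in females. Its log2 difference was -0.60 with an SE of 0.042, and its p was the smallest of all genes (edgeR, Benjamini-Hochberg adjusted p = 2.21e-04). In yw it had 375.6 and 358.0 CPM in males and 415.7 and 401.5 CPM in females, a log2 difference of -0.16. The kinase gene Sik2 (FBgn0025625, chromosome X, 2055316 to 2061915, minus strand, overlapping CG4313 and CR44896), a member of the salt-inducible kinases, showed the same order of groups. It had 104.5, 97.1 and 110.6 CPM in males and 165.8, 151.0 and 164.6 CPM in females. The log2 difference was -0.62 (SE 0.049, edgeR, Benjamini-Hochberg adjusted p = 3.92e-04). In yw it had 231.3 and 226.6 CPM in males and 246.8 and 247.7 CPM in females, a log2 difference of -0.11. The genes baz, CG43921 and Sik2 were called in each of the 10 fits that left out a library. In all 3 genes female replicate 2 was the lowest female, at 139% to 146% of the male mean, against 142% to 159% in the other females.

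The gene Syx4 (FBgn0024980, chromosome X, 2739089 to 2744076, minus strand), which encodes a syntaxin of vesicle fusion at the plasma membrane, was expressed at a lower level. It had 2.75, 2.86 and 2.47 CPM in males and 5.30, 4.39 and 4.37 CPM in females. The log2 difference was -0.80 (SE 0.11, edgeR, Benjamini-Hochberg adjusted p = 0.0379). It lost the call in each of the 10 fits that left out a library, with adjusted p-values from 0.0554 to 0.196. The yw libraries had 4.58 to 5.17 CPM in both sexes, with a log2 difference of 0.03, so that 12xWT males alone stood apart by level.

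A further X-linked gene, CG17163 (FBgn0039942, chromosome X, 23080759 to 23082709, minus strand, overlapping CG17167), was chosen after its values were seen, for the largest difference among DESeq2's X-linked calls lower in males. It had 7.44, 3.37 and 8.34 CPM in males and 20.5, 17.6 and 17.9 CPM in females of 12xWT. In yw it had 43.4 and 41.9 CPM in males and 43.9 and 45.2 CPM in females. Its log2 difference of -1.53 (SE 0.28) was not called by edgeR (Benjamini-Hochberg adjusted p = 0.208) and was called by DESeq2 (adjusted p = 4.74e-04). Male replicate 2 was the lowest male, and edgeR called the gene in 1 of 10 fits that left out a library.

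**Figure D3:**
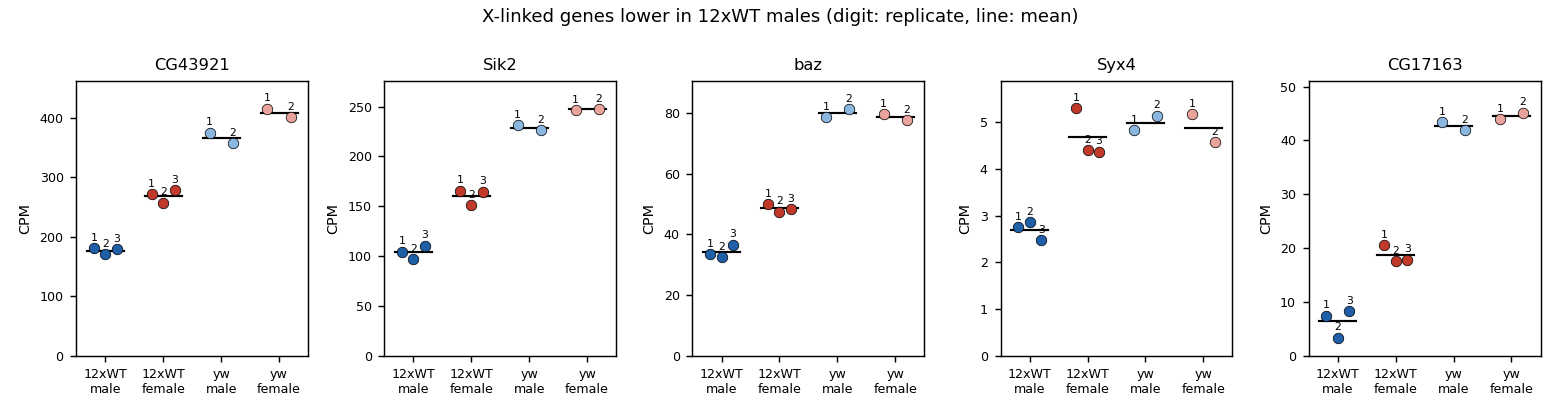
Level of CG43921, Sik2, baz, Syx4 and CG17163 in each library (y axes, CPM, each starting at 0), by genotype and sex (x axes), with points for libraries, their replicate numbers and lines for group means. In all 5 genes the 3 males of 12xWT lie below the 3 females of 12xWT, and in all but Syx4 both lie below the 4 libraries of yw.

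Whether a sex difference itself differed between 12xWT and yw was tested as an interaction in the same fit. By edgeR 0 genes were called (0% of those tested), and the smallest Benjamini-Hochberg adjusted p was 0.111. An unadjusted p under 0.05 was reached by 456 of 11146 genes tested. That is a smaller share than a threshold of 0.05 passes when no gene differs. It was 811 of 11123 without 12xWT male replicate 1 and 727 of 11115 without 12xWT female replicate 3, both above that share. Without 12xWT female replicate 2 it was 292 of 11112, again below it. DESeq2's Wald test called 11 genes, and edgeR without the expression filter called 3: baz, CG43921 and Sik2. Without 12xWT male replicate 3 edgeR called 3 as well, baz, Sik2 and tyn. It called 2 without yw male replicate 2 and 1, CG17163, without 12xWT male replicate 2. The 12xWT difference minus the yw difference was -0.53 for baz, -0.45 for CG43921 and -0.51 for Sik2 (SE 0.068, 0.065 and 0.076), with edgeR Benjamini-Hochberg adjusted p-values of 0.111, 0.138 and 0.138. DESeq2 called all 3 (adjusted p = 1.12e-06, 7.41e-06 and 7.41e-06), and msl-2 was also among its 11 genes (difference -0.53, adjusted p = 0.0473).

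The next genes by p were CG32521 and Obp56d. The X-linked gene CG32521 (chromosome X, 21205310 to 21281171, minus strand) had log2 differences of -0.09 in 12xWT and -0.37 in yw. It stood at 263.7, 261.9 and 255.9 CPM in 12xWT males, 277.9, 272.8 and 280.7 CPM in 12xWT females, 237.7 and 233.0 CPM in yw males, and 303.5 and 303.0 CPM in yw females. Obp56d, an odorant-binding protein gene (chromosome 2R, 19702924 to 19703915, minus strand), was near the limit of detection. It had 0.0250, 0.209 and 0.122 CPM in 12xWT males and 0.211, 0.331 and 0.143 CPM in 12xWT females. In yw it had 0.822 and 0.780 CPM in males and 0.0384 and 0.0356 CPM in females. Neither interaction was called by edgeR (Benjamini-Hochberg adjusted p = 0.321 for each), and both were called by DESeq2 (adjusted p = 3.26e-04 for CG32521 and 0.0302 for Obp56d).

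The sex difference measured in yw gave a list of genes chosen on yw values, although the fit shared its filter and its estimate of spread with the 12xWT libraries. In yw, edgeR called 90 genes between the sexes (0.807% of those tested), 49 higher in males (0.440%) and 41 lower (0.368%). X-linked were 80 of the 90, against 1886 of the 11146 genes tested. This list rests on single libraries: edgeR called 0 genes in yw without yw female replicate 1, 10 without yw male replicate 1, 23 without yw male replicate 2, 32 without yw female replicate 2 and 54 without 12xWT female replicate 2. With the replicate number as a block it called 41, with a required 2-fold change 0, and DESeq2 called 177. In 12xWT, 84 of the 90 had the same sign, and in 74 all 12xWT males lay on the same side of all females, against 9.99% of all genes with no overlap in either direction. In 12xWT 70 had an unadjusted edgeR p under 0.05, and 2, msl-2 and ssx, were called. Of the 80 X-linked genes, 78 kept the sign, and of 10 autosomal genes 6 did.

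In all 90 genes the difference was smaller in 12xWT than in yw, with a median ratio of the log2 differences of 0.48. Genes picked for a large value in yw tend to have a smaller one in other libraries, so the ratio is a description, and its part from the Y-linked and roX RNA in the 12xWT females was not tested. The mean log2 level of the 49 male-higher genes minus that of the 41 male-lower genes gave -1.76, -1.61 and -1.77 in 12xWT males and -2.35, -2.16 and -2.37 in 12xWT females. It gave -1.27 and -1.42 in yw males and -2.77 and -2.64 in yw females. On this scale the 12xWT sexes did not overlap, and both lay between the yw sexes. The genes were chosen on the yw libraries, which by itself sets the yw sexes far apart, so this placement is a description only. Female replicate 2 was the female nearest to the males, and it stood nearer to the other 12xWT females than to any 12xWT male.

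**Figure D4:**
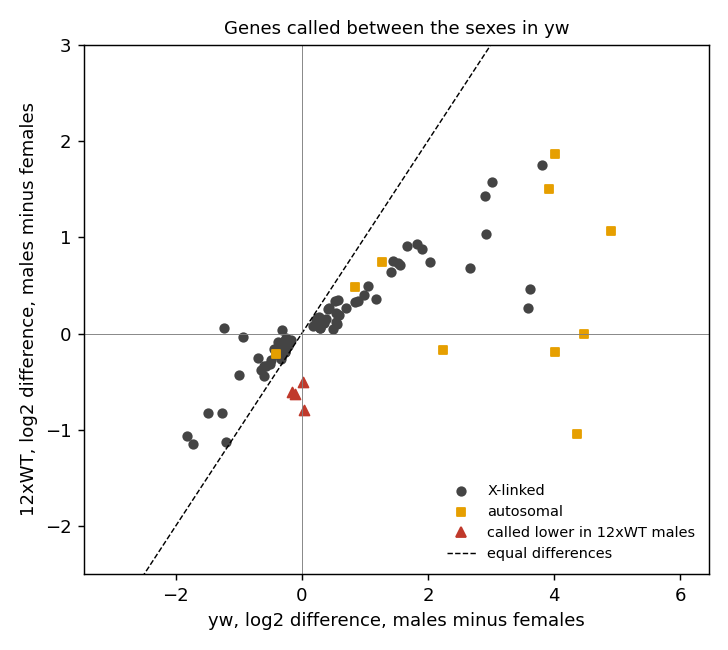
Log2 difference of males minus females in yw (x axis) against 12xWT (y axis) for the 90 genes called between the sexes in yw, X-linked genes as circles and autosomal genes as squares, with the dashed line at equal differences. Triangles are the 4 X-linked genes called lower in 12xWT males, at -0.51 to -0.80 in 12xWT and -0.16 to 0.03 in yw.

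Other X-linked genes with large differences kept the direction they had in yw. Among genes of at least 1 CPM in the higher sex with a log2 difference of 0.5 or more and no overlap, 21 X-linked genes were lower in males and 12 higher, and 19 and 12 of them had the same sign in yw. On the autosomes 10 were lower and 11 higher, with 7 and 8 of the same sign in yw. Without a limit on level or size, 17.97% of X-linked genes were lower and 6.68% higher with no overlap, against 5.25% and 4.75% of all genes tested. The X-linked median was negative in both 12xWT and yw, at -0.042 and -0.054. The share of all genes with the same sign in yw was not counted. The genes with large differences were chosen by their values, and of them only the genes given as called above passed edgeR's test.

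Lower in males were the noncoding RNA genes CR45668 (overlapping CG16721) and CR44470 (overlapping CG2652) and the eggshell gene fs(1)M3 (overlapping CG6067). CR45668 had 4.29, 2.19 and 3.48 CPM in males and 7.54, 7.33 and 7.34 CPM in females. CR44470 had 0.538, 0.381 and 0.525 CPM in males and 1.16, 1.05 and 0.981 CPM in females. Their log2 differences were -1.14 and -1.13 in 12xWT and -1.72 and -1.20 in yw. That of fs(1)M3 was -1.06 in 12xWT and -1.83 in yw.

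Higher in males was fs(1)Yb, which acts in the piRNA pathway of ovarian somatic cells. It had 0.663, 1.01 and 0.822 CPM in males and 0.282, 0.349 and 0.285 CPM in females, a log2 difference of 1.43, not called by edgeR (Benjamini-Hochberg adjusted p = 0.110) and called by DESeq2 (adjusted p = 0.0347). The channel-family gene brv3 (overlapping Seipin) stood at 1.04 and the fucosyltransferase gene FucTC (overlapping CR45009 and CR45010) at 0.93, both with no overlap. The kinesin-like gene nod, next to roX2 on the X, had 20.1, 20.7 and 19.0 CPM in males and 15.0, 17.0 and 15.2 CPM in females, a log2 difference of 0.34 that DESeq2 called (adjusted p = 0.00531) and edgeR did not (Benjamini-Hochberg adjusted p = 0.126).

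Of the 55 genes DESeq2 called, 43 were X-linked, 11 higher and 32 lower, and 12 were autosomal, 7 higher and 5 lower. X-linked genes were 1886 of the 11146 tested. All 55 had no overlap in 12xWT, against 9.99% of all genes tested. They were called on these same libraries, so their lack of overlap is a description. In yw 53 had the same sign, and the share of all genes with the same sign was not counted. In 23 of the 32 X-linked genes lower in males the log2 difference was closer to 0 than -0.5. An example is CG8611, at 40.0, 35.7 and 40.0 CPM in males and 51.2, 46.5 and 46.9 CPM in females (log2 difference -0.32). The ribosomal protein gene RpL35, X-linked and higher in males, had 575.6, 565.6 and 613.7 CPM in males and 542.5, 533.2 and 496.4 CPM in females (log2 difference 0.16).

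Among the autosomal genes, msl-2 was the single edgeR call. DESeq2 added asparagine-synthetase, ImpL3, the fly lactate dehydrogenase, CG17018 and gem, a transcription factor gene, among the genes lower in males. The gene gem had 463.8, 465.4 and 465.3 CPM in males and 524.5, 500.7 and 502.6 CPM in females, a log2 difference of -0.13. ImpL3 had 16.8, 25.5 and 16.1 CPM in males and 28.4, 35.1 and 28.5 CPM in females, a log2 difference of -0.66. Neither passed edgeR's test (Benjamini-Hochberg adjusted p = 0.208 and 0.460). The autosomal genes CG34296 and Ptp52F, named after their values were seen, were called by neither test. CG34296 (chromosome 3R, 29722538 to 29723013, plus strand) had 3.13, 4.63 and 6.09 CPM in males and 0.246, 1.5 and 0.285 CPM in females, a log2 difference of 2.76 that was 4.10 without female replicate 2 (edgeR adjusted p = 0.461). The receptor phosphatase gene Ptp52F (chromosome 2R, 16171112 to 16178307, minus strand) had 2.002, 2.80 and 2.48 CPM in males and 1.41, 1.38 and 1.44 CPM in females, and 0.365 to 0.472 CPM in the yw libraries.

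Marker genes of other tissues that can adhere to a dissected brain differed in level between libraries. Genes of the salivary gland glue, which is made at this stage, were low throughout. Sgs3 had 4.99, 1.73 and 2.62 CPM in males and 1.23, 0.994 and 0.481 CPM in females, and Sgs5 had 2.13, 0.628 and 1.29 CPM in males and 0.510, 0.419 and 0.196 CPM in females. Both had every male above every female and log2 differences of 1.80 and 1.86, called by DESeq2 (adjusted p = 0.00250 and 0.0330) and not by edgeR (Benjamini-Hochberg adjusted p = 0.291 and 0.294). The 8 listed salivary gland genes, 7 of them tested, summed to 5.52 to 22.6 CPM in males and 2.43 to 5.62 CPM in females, which overlapped. Of the 7, only Sgs3 and Sgs5 had every male above every female, an order found in 4.75% of all genes tested. An unadjusted edgeR p under 0.05 was reached by 4 of the 7, against 6.21% of all genes. Whether gland tissue came with the brains was not tested. Fat body genes summed to 39.4 to 507.9 CPM in males and 74.1 to 289.2 CPM in females, and cuticle genes to 3.78 to 12.1 and 5.98 to 26.6 CPM, both overlapping. In bulk RNA, fewer cells of a type and less RNA per cell cannot be told apart.

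The cell types of the brain itself showed no called sex difference. Of 8 neuroblast, 12 neuron and 10 glia genes edgeR and DESeq2 called 0, with 1 gene of each list at an unadjusted edgeR p under 0.05, against 6.21% of all genes. The median log2 differences were -0.028, -0.080 and -0.077. Every male lay below every female in 1 neuroblast gene, the proneural gene ase, in 1 neuron gene, Appl, and in 0 glia genes. That order was found in 5.25% of all genes tested and in 17.97% of X-linked genes. Both ase and Appl were X-linked, each at -0.17. Of 17 tested testis genes 0 were called by either tool, with 1 at an unadjusted edgeR p under 0.05. It was the germline helicase gene vas, at 2.95 to 3.30 CPM in males and 3.59 to 3.87 CPM in females, a log2 difference of -0.28. The 6 tested ovary genes, with vas and fs(1)M3 at an unadjusted edgeR p under 0.05, also gave 0 calls by either tool. The 3 yolk protein genes were near the limit of detection and overlapped.

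Among 23 Polycomb group genes edgeR and DESeq2 called 0, with 1 at an unadjusted edgeR p under 0.05, against 6.21% of all genes. Their median was 0.015, and 2 of them, escl and l(3)73Ah, had every male above every female, at 0.10 and 0.06, where 4.75% of all genes did. Of the 8 Hox genes 0 were called by either tool, with 0 at an unadjusted edgeR p under 0.05. The anterior Hox gene lab, at 0.33, was the 1 member of the 8 with no overlap, where 9.99% of all genes tested had none in either direction. In the lists of eye disc, imaginal disc, ring gland, muscle, hemocyte, doublesex target, DNA replication and cell cycle, heat shock and antimicrobial peptide genes 0 genes were called by either tool. Of their 88 tested members, 4 had an unadjusted edgeR p under 0.05, against 6.21% of all genes.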

How the data were processed

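PolyA-selected RNA was sequenced from 10 pools of larval brains, each of 25 brains; group, sex and replicate number were read from the titles. The authors deposited raw counts of read pairs per gene, made with featureCounts 2.0.1 in paired-end mode over exons on dm6 with no strand option, per the file headers, although the labels name a stranded kit. Alignment was with STAR 2.7.7a, per the submitters' processing notes. The table holds 16727 genes, of which 5346 overlap another gene's exons, and 5 names that had become dates were restored by position.

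Counts as deposited were tested in R 4.3.3 with edgeR 4.0.16, with DESeq2 1.42.0 as the alternative. filterByExpr over the 4 groups kept 11146 genes, libraries were scaled by TMM, and a robust quasi-likelihood model gave each group of genotype and sex a mean over all 10 libraries, so that the groups share an estimate of spread (common biological coefficient of variation 8.73%). Contrasts were males minus females in 12xWT, the same in yw, and their difference, each adjusted by Benjamini-Hochberg over all genes at 0.05. The SE is the absolute log2 difference divided by the square root of F. CPM values used the library total without TMM. Values per library were compared by two-sided exact permutation. The model was tested on simulated counts. The genes, lists and tests were chosen with earlier results of these data known.

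Named were, on X and on the autosomes, up to 10 genes per direction with an adjusted p under 0.05, at least 1 CPM in the higher sex and no overlap, every tested Y-linked gene, the dosage compensation and sex determination genes, the 5 smallest interaction p-values, and called members of other lists; others are marked as chosen after their values were seen, or were called by DESeq2, had large differences without overlap, or had no overlap within a list. The authors' own comparison of genotypes was not used, and a planned count of promoter motifs was not made. Same-numbered males and females did not deviate together.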

Additional observations from a re-analysis of the deposited data

How the results depend on the processing

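The count of 6 called genes (2 higher, 4 lower, 5 X-linked, 1 autosomal) depended on the tool. DESeq2 called 55 (18 higher, 37 lower, 43 X-linked, 12 autosomal) and 11 for the interaction. A required 2-fold change left 0 in either direction, 0 X-linked and 0 autosomal. The 6 12xWT libraries alone gave 3 (0 higher, 3 X-linked, 0 autosomal), and without 12xWT female replicate 2 as well, a choice made after seeing the data, 4: 2 higher and Y-linked, 2 lower and X-linked, 0 autosomal, with baz no longer called (edgeR adjusted p = 0.0579). With no expression filter 0 autosomal genes and 3 interactions were called. With the replicate number as a block, 4 genes were called, 1 higher and 3 X-linked; same-numbered libraries had correlations of -0.132, 0.040 and -0.172, so the numbers were not taken as pairs. Leaving out each library gave 3 to 9 calls, 0 to 3 higher, 3 to 7 lower, 3 to 8 X-linked, 0 to 1 autosomal and 0 to 3 interactions, and an X-linked median of -0.0513 to -0.0332. For 56 named genes, 992 of the alternative values kept direction and side of the threshold, 29 newly passed, 39 no longer passed, and 1 reversed: dsx, at -0.05 without 12xWT male replicate 3, in a range up to 0.28 over the libraries left out. The cause of these changes was not tested. With each 12xWT library left out, the difference of the X-linked share lay between -0.459 and -0.365 percentage points and that of the summed Y-linked level between 10.2 and 16.9 CPM; 3 against 3 pools cannot reach an exact permutation p under 0.1.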
